A study of Mus musculus with 2 samples.

Results

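The 10 genes described here encode MHC class I molecules and the machinery that makes and loads their peptides: B2m, H2-D1, H2-K1, H2-Q7, Tap1, Tap2, Tapbp, Psmb8, Psmb9 and Psmb10. They were taken by name from the 32285 genes of 2 CITE-seq libraries of mouse ankle synovium. CITE-seq counts a cell's messenger RNA molecules, as unique molecular identifiers (UMIs), together with barcoded antibodies on its surface. One library came from animals 7 days after 200 µL of clodronate liposomes (Clo-lip), which kill the phagocytes that take them up, injected retro-orbitally. The other came from untreated animals (steady state). All animals were bone marrow chimeras, C57BL/6 (B6) hosts carrying CD45.2 that had received CD45.1 B6 marrow, so CD45.2 is carried by host cells and CD45.1 by donor cells. The sort kept live CD45+ CD11b+ cells that were negative for CD177, Ly6C, MHCII, CD64, SiglecF and Ly6G. The number of animals behind each library and their age were not given in the sources used here. With 1 library a group there is no replicate, so no difference between the libraries was tested, and every interval is a 95% interval that covers counting error alone.

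A class I molecule is a heavy chain (here H2-D1, H2-K1 or the nonclassical H2-Q7) held by the invariant light chain beta-2 microglobulin (B2m), and it shows peptides from inside the cell to CD8 T cells. The peptides are cut by the proteasome, whose catalytic subunits Psmb5, Psmb6 and Psmb7 can be replaced by the immunoproteasome subunits Psmb8, Psmb9 and Psmb10, in that order. They are pumped into the endoplasmic reticulum by the transporter Tap1-Tap2 and fitted into the heavy chain with the help of tapasin (Tapbp). Interferons raise most of these genes together, and the transactivator Nlrc5 acts on the promoters of heavy chains, B2m and several loading genes.

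Of the genes, 8 lie on chromosome 17, in or beside the MHC, between 33919478 (the start of Tapbp) and 35443773 (the end of H2-Q7), while B2m is on chromosome 2 and Psmb10 on chromosome 8 (RefSeq, GRCm38.p6). Upstream of the heavy chains and B2m, a TGACG and an ATTGG stood 20 bases apart (19 in H2-Q7) on the strand of the gene. These letters belong to the X2 and Y boxes of the SXY module known from class I promoters. The stretches are shown because they are what the 4 genes share, with both motifs in capitals.

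H2-D1: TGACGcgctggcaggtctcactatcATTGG
H2-K1: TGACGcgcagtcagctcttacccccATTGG
H2-Q7: TGACGtgtaacagttctcacccctATTGG
B2m: TGACGacctccggatctgagtccggATTGG

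The stretches lie at chr17:35262993-35263022 (plus strand), chr17:34000359-34000388 (minus strand), chr17:35439091-35439119 (plus strand) and chr2:122147609-122147638 (plus strand) in the order printed. Of 32851 RefSeq windows of the 250 bases before a start, 0.0913% held this pair at a spacing of 20 bases and 0.0365% at 19, on either strand. The window of H2-K1 lies inside the span that RefSeq gives that gene. H2-D1 and H2-K1 had 23 of the 30 bases in common.

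Farther upstream, each heavy chain had a 10-base NF-kB site, which 0.0852% of the windows held on either strand. It was followed by TTTCACTTC, a form of the interferon response element, and both are in capitals. The letters TTTC, any 2 bases and TT, which this form contains, were in 21.3% of the windows on either strand. The share for the whole of TTTCACTTC was not counted. H2-D1 and H2-K1 had 29 of 30 bases in common here. B2m had another form of the response element, a TTTC and another TTTC with any 2 bases between them, read on the reverse strand, which 2.98% of the windows held on either strand (in capitals in its line).

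H2-D1: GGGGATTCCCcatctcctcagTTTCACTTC
H2-K1: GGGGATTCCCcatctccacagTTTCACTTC
H2-Q7: GGGGATTCCCatctccccagTTTCACTTC
B2m: GAAACTGAAAatgggaaagtccctttgtaa

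These lie at chr17:35262923-35262952, chr17:34000429-34000458, chr17:35439022-35439050 and chr2:122147548-122147577, on the strands named above. A match is a run of letters and not a shown binding site. Tap1 and Psmb9 start in opposite directions from 225 bases that lie between them, at chr17:34187331-34187555, printed on the strand of Tap1 with a CCAAT (the reverse of ATTGG) and a TGACG in capitals.

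Tap1 and Psmb9: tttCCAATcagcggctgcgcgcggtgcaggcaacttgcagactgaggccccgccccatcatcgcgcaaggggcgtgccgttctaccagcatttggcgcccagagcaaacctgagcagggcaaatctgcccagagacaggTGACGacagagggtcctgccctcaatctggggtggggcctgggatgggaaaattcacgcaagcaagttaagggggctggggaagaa

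A CCAAT or ATTGG was in 33.8% and a TGACG or CGTCA in 17.8% of the windows. Tap1, Psmb9, Psmb8, Psmb10 and Tapbp held neither the spaced pair nor the NF-kB site in their windows, and no window was matched for Tap2.

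After filtering, 1200 day 7 cells (10824984 UMIs, median 8309 a cell) and 1630 steady-state cells (17060676 UMIs, median 9558.5) remained, and the libraries shared 0 barcodes. Cells were gated on summed marker UMIs per 10000. The gates held 151 day 7 and 872 steady-state macrophages (C1qa, C1qb and C1qc), 564 and 154 classical monocytes, 104 and 109 Ly6C-low monocytes, 82 and 259 cells high in MHC class II genes, 164 and 8 granulocytes and progenitors, and 15 and 64 fibroblasts; 120 and 164 cells fell in no gate. The gates rest on messenger RNA. Cells gated partly by Ly6c2 or by class II genes were found although the sort was against these proteins, and the reason was not tested. Of the listed markers that played no part in a gate, 10 of 11 were higher in macrophages than in other cells in both libraries (Fcgr1 was not). The count was 4 of 4 at day 7 and 2 of 4 at steady state for classical monocytes, and 5 of 6 and 6 of 6 for Ly6C-low monocytes. The neutrophil genes used in gating had a median of 1.19 to 2.23 UMIs per 10000 at day 7 and 0 at steady state in these 3 gates, and day 7 macrophages were shallower (median 6775 against 10020.5 UMIs). The part of either in the results below was not tested, apart from the thinned values given.

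Ly6C-low monocytes, the patrolling monocytes of the blood, had the highest level of all 3 heavy chains and of B2m in both libraries. Summed over the 10 genes, they had 7606 CPM (UMIs per 1000000 UMIs of the class) at day 7 and 11023 at steady state. Macrophages had 3590 and 4469 CPM, classical monocytes 4534 and 7209, and class II-high cells 5505 and 6877. Granulocytes and progenitors had 2008 CPM at day 7 and fibroblasts 1694 at steady state. By this sum macrophages were below both kinds of monocyte and the class II-high cells in both libraries, while classical monocytes were below class II-high cells at day 7 and above them at steady state.

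B2m had 3424 CPM (3282 to 3570) in Ly6C-low monocytes at day 7 and 3234 (3115 to 3355) at steady state. It came to 1282 and 1312 in macrophages, 1632 and 1910 in classical monocytes, and 1759 and 1466 in class II-high cells. The lowest levels were 748 in granulocytes and progenitors at day 7 and 532 in fibroblasts at steady state. The light chain thus differed 4.58-fold between its highest and lowest class at day 7 and 6.08-fold at steady state.

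H2-D1, a classical heavy chain, had 2074 CPM in Ly6C-low monocytes at day 7 and 4506 at steady state, 1914 and 3591 in class II-high cells, 1294 and 3078 in classical monocytes, and 1188 and 1990 in macrophages. All 4 of these classes were lower at day 7. Its lowest class had 525 at day 7 (granulocytes and progenitors) and 598 at steady state (fibroblasts).

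H2-K1, the other classical heavy chain, had 1184 CPM in Ly6C-low monocytes at day 7 and 1876 at steady state. Levels were 798 and 881 in class II-high cells, 609 and 970 in classical monocytes, and 620 and 640 in macrophages. At day 7 the intervals of macrophages and classical monocytes overlapped, so their order is not resolved. H2-K1 and H2-D1 are so alike in sequence that reads could be split or lost between them and other heavy chains by the authors' counting, which makes the level of each uncertain.

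H2-Q7, which encodes the nonclassical heavy chain Qa-2 together with near-identical neighbours, had the widest range between its highest and lowest class, 9.59-fold at day 7 and 110-fold at steady state. It had 54.7 CPM (38.1 to 76.0) in Ly6C-low monocytes at day 7 and 174 (148 to 204) at steady state. Class II-high cells had 37.9 (25.6 to 54.2), which overlaps Ly6C-low monocytes at day 7, and 36.2, classical monocytes 15.3 and 22.8, and macrophages 5.70 and 7.83. Fibroblasts at steady state had 1.58 from 1 UMI. A UMI of H2-Q7 was found in 22.1% of Ly6C-low monocytes at day 7 and 57.8% at steady state, against 3.97% and 7.00% of macrophages; with every cell thinned to 3000 UMIs the shares were 16.1% and 44.4%, against 1.71% and 1.65%.

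Tap1 and Tap2, the subunits of the transporter, differed in how they followed cell type. Tap1 had 104 CPM in class II-high cells at day 7 and 70.5 at steady state, 92.1 and 98.6 in Ly6C-low monocytes, 81.5 and 113 in classical monocytes, and 30.4 and 21.1 in macrophages. Tap2 stayed between 41.7 and 82.5 CPM in every class but fibroblasts (23.7 at steady state). Macrophages were thus low in Tap1 but within the range of the other myeloid classes in Tap2, with 59.8 and 58.3 CPM.

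Tapbp, the tapasin gene, was the flattest of the 10 at steady state, at 136 to 185 CPM over 5 classes, with fibroblasts highest. At day 7 it had 217 CPM in classical monocytes, 207 in class II-high cells, 200 in macrophages and 197 in Ly6C-low monocytes, whose intervals overlap, and 65.2 in granulocytes and progenitors.

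The immunoproteasome genes were lower in macrophages than in monocytes in both libraries. Psmb8 had 96.9 CPM there at day 7 and 163 at steady state, against 316 and 533 in classical monocytes, 241 and 534 in Ly6C-low monocytes, and 300 and 404 in class II-high cells. Psmb9 had 34.2 and 47.9 in macrophages and 142 and 144 in classical monocytes. Psmb10 had 72.2 and 84.4 in macrophages and 183 and 220 in classical monocytes. Steady-state fibroblasts had 36.4 for Psmb8, 12.7 for Psmb9 and 60.1 for Psmb10.

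**Figure D1:**
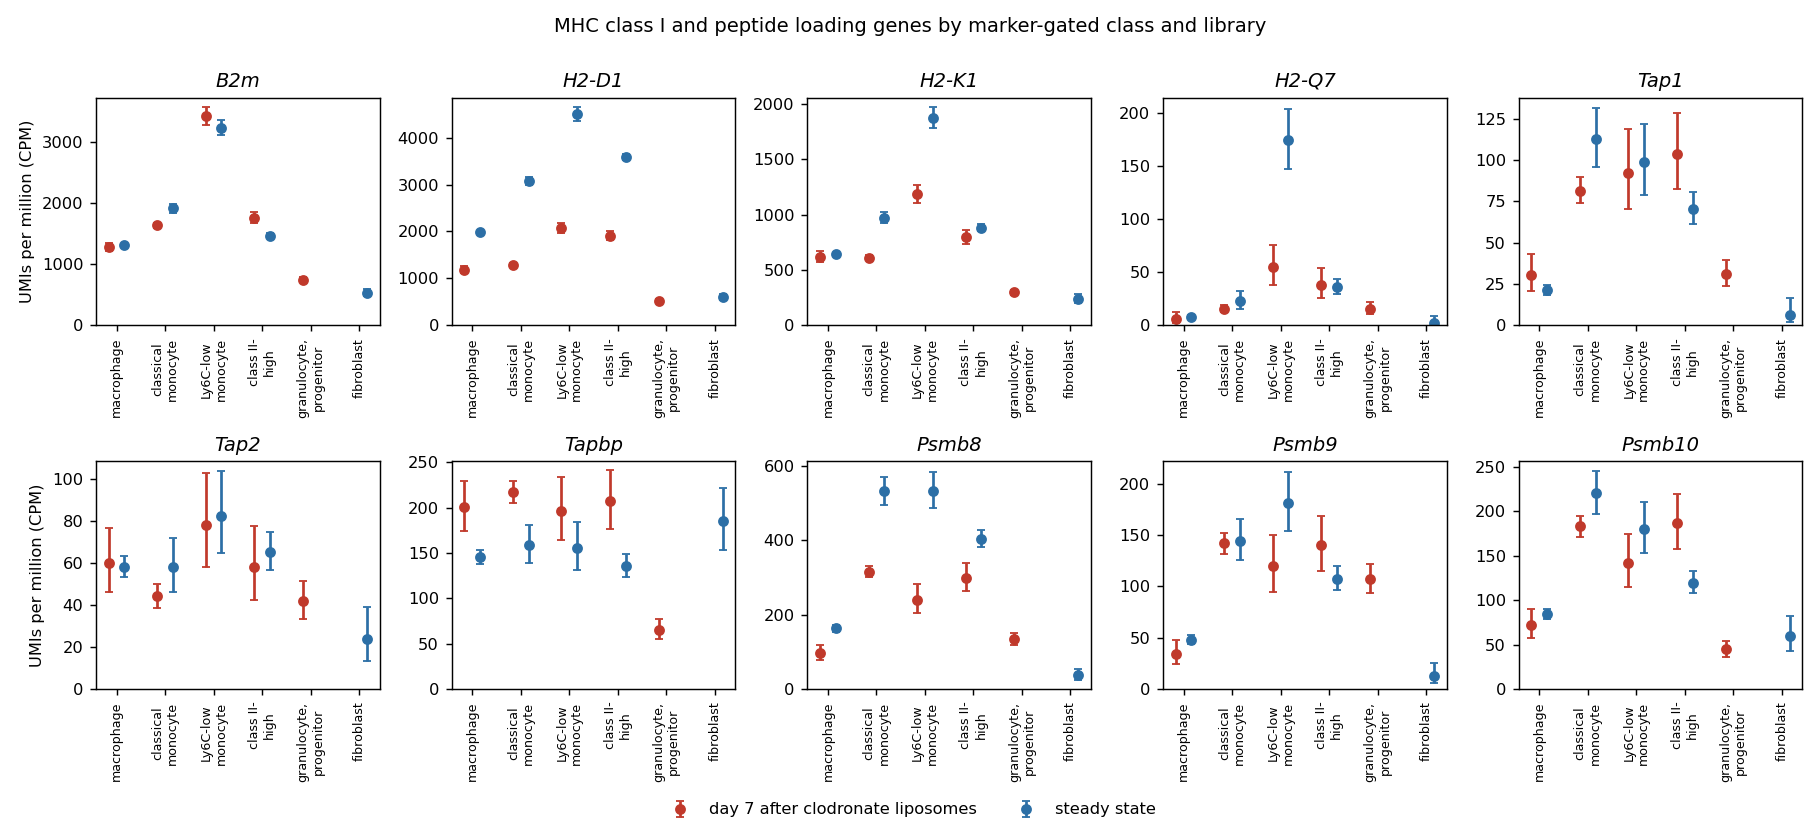
Level of each gene in CPM (linear y axis from 0, a separate scale for each gene) by gated class, in the day 7 library (red, left) and the steady-state library (blue, right), for classes with at least 20 cells; bars are 95% Poisson intervals. H2-D1 is lower at day 7 in all 4 classes held by both libraries (2074 against 4506 in Ly6C-low monocytes), while B2m stays close (3424 against 3234).

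Counted against their constitutive partners, which removes the library scaling, immunoproteasome subunits took a smaller share in monocytes at day 7. Psmb8, Psmb9 and Psmb10 together made 54.4% (53.2 to 55.7) of the 6 subunits' UMIs in classical monocytes at day 7 and 65.5% (63.3 to 67.6) at steady state. The share was 44.5% (40.8 to 48.2) and 67.6% (64.8 to 70.3) in Ly6C-low monocytes, and 29.5% (26.2 to 33.0) and 34.4% (33.4 to 35.5) in macrophages. Class II-high cells did not share the difference, with 55.5% (52.2 to 58.8) and 52.2% (50.5 to 53.8), and the cells outside all gates ran the other way, with 43.9% and 32.2%.

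The subunits did not move alike. In Ly6C-low monocytes, Psmb8 made 42.2% of its pair with Psmb5 at day 7 and 72.2% at steady state, Psmb9 39.5% and 54.9% of its pair with Psmb6, and Psmb10 55.5% and 70.4% of its pair with Psmb7. Classical monocytes had 57.7% and 74.7% for Psmb8 and 61.6% and 73.5% for Psmb10, but 42.7% and 40.3% for Psmb9, with overlapping intervals. Of the partners, Psmb5 had 330 CPM in Ly6C-low monocytes at day 7 and 205 at steady state, so both sides of the Psmb8 pair differed.

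**Figure D2:**
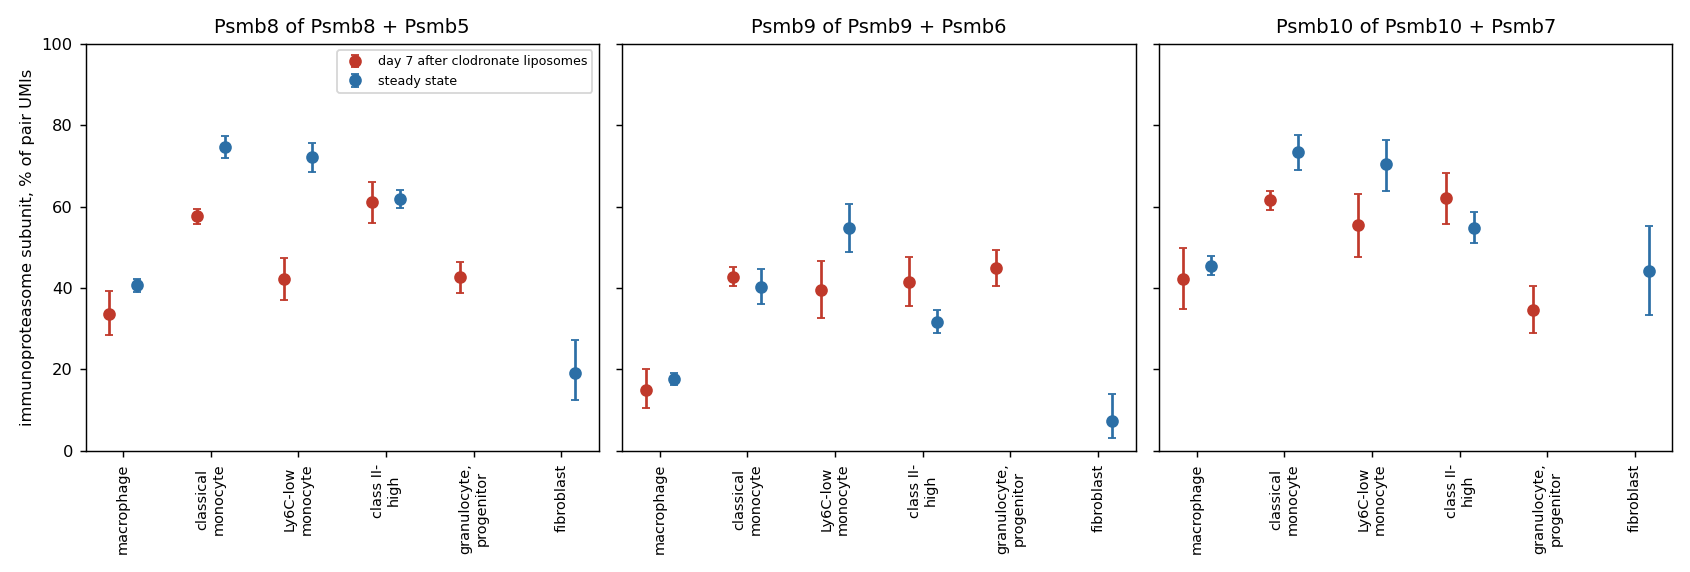
Share of UMIs (percent, y axis from 0 to 100) that each immunoproteasome subunit takes of its pair with the constitutive subunit, by gated class, at day 7 (red, left) and steady state (blue, right), with 95% Clopper-Pearson intervals. The Psmb8 share in Ly6C-low monocytes is 42.2% at day 7 and 72.2% at steady state, while in class II-high cells it is 61.1% and 61.9%.

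The comparison of day 7 with steady state within a class asks how these cells differ after phagocytes have been depleted. In macrophages, H2-D1 was at 0.597 of its steady-state level and Psmb8 at 0.595, whereas B2m, H2-K1 and Tap2 were level, with intervals on both sides of 0, and Tapbp was 1.38-fold higher. In both kinds of monocyte H2-K1 was lower too, at 0.628 in classical and 0.631 in Ly6C-low monocytes. B2m was at 0.855 and 1.06 of its steady-state level. Ratios were taken where day 7 or steady state reached 20 CPM, and a gene past 1.5-fold is counted by size, with no test.

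Of the 9 genes compared in macrophages (H2-Q7 was below the minimum), 2 were lower by 1.5-fold or more (6% of 6418 genes) and 0 higher (11.5%), so 2 of 9 were past it in either direction (17.5%). H2-D1 had a log2 ratio of -0.74 (-0.83 to -0.66), from 1251 day 7 and 18553 steady-state UMIs. Psmb8 had -0.75 (-1.05 to -0.46), from 102 and 1518 UMIs. Tapbp had 0.46 (0.25 to 0.68). The intervals of B2m (-0.03), H2-K1 (-0.05), Tap1 (0.52, from 32 UMIs at day 7), Tap2 (0.04), Psmb9 (-0.49) and Psmb10 (-0.23) all held 0, and Psmb9 was at 0.13 after thinning to 3000 UMIs. The median of the 9 was -0.05, against 0.12 over all genes compared. Among the 178 genes at 1000 CPM or more in either group, 3 had a lower ratio than H2-D1.

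Of the 10 in classical monocytes, 3 were lower by 1.5-fold or more (6.33% of 5798 genes) and 0 higher (15.1%), so 3 of 10 were past it in either direction (21.4%). H2-D1 had -1.25 (-1.31 to -1.20), Psmb8 -0.76 (-0.88 to -0.63) and H2-K1 -0.67 (-0.76 to -0.58). Smaller values below 0 were found for Tap1 (-0.47), Tap2 (-0.40), Psmb10 (-0.27) and B2m (-0.23), with intervals that leave out 0, while those of H2-Q7 (-0.58) and Psmb9 (-0.02) held it. Tapbp stood alone above 0, at 0.45 (0.24 to 0.66). H2-K1 fell short of 1.5-fold after thinning (-0.50) and Psmb8 with clusters in place of gates (-0.52), where H2-Q7 was at -1.50; Psmb9 was at 0.24 after thinning. The median was -0.43, against 0.13 over all genes, and 3 of 182 genes at 1000 CPM or more had a lower ratio than H2-D1.

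In Ly6C-low monocytes 5 of 10 were lower by 1.5-fold or more (12.6% of 5751 genes) and 0 higher (16.8%), so 5 of 10 were past it in either direction (29.4%). The lowest was H2-Q7 at -1.67 (-2.25 to -1.13), from 35 and 152 UMIs, followed by Psmb8 at -1.15 (-1.42 to -0.89), H2-D1 at -1.12 (-1.21 to -1.03), H2-K1 at -0.66 (-0.79 to -0.54) and Psmb9 at -0.59, whose interval ended at -0.19. B2m was at 0.08 (0.0011 to 0.16). The intervals of Tap1 (-0.10), Tap2 (-0.08), Psmb10 (-0.34) and Tapbp (0.34) held 0. With clusters in place of gates, H2-K1 was at -0.51, short of 1.5-fold, and 4 genes were lower by that size. The count was also 4 after thinning, in donor-class cells alone and at no more than 5% mitochondrial UMIs. Without the cells showing 4 or more interferon-stimulated genes it was 4 as well, and it was 5 under the other settings run. The median was -0.47, against 0.07 over all genes, and 5 of 175 genes at 1000 CPM or more had a lower ratio than H2-D1.

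**Figure D3:**
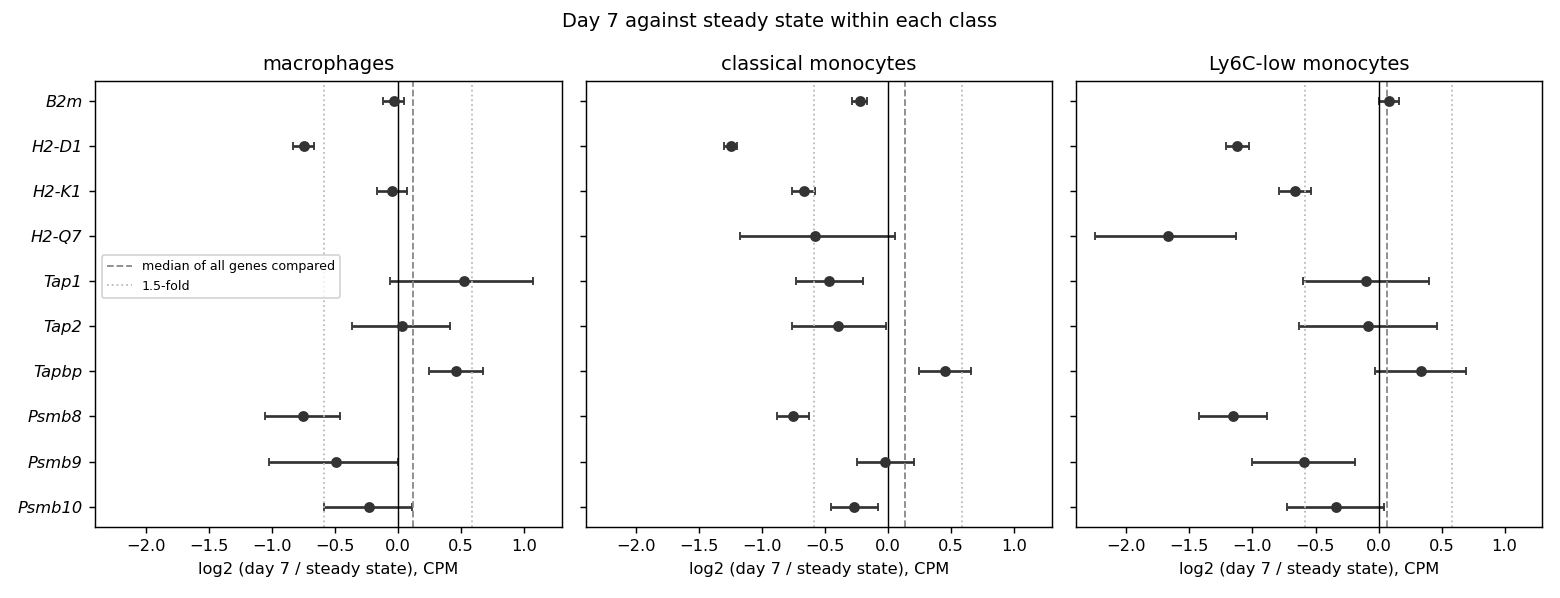
Log2 ratio of day 7 over steady state (x axis) for each gene with at least 20 CPM in either group, in macrophages, classical monocytes and Ly6C-low monocytes; points are ratios of CPM, bars 95% Poisson intervals, the dashed line the median of all genes compared (0.12, 0.13 and 0.07) and the dotted lines 1.5-fold. H2-D1 and Psmb8 are past 1.5-fold lower in all 3 classes and Tapbp is above 0 in all 3.

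The lower H2-D1 was found in each subset of cells that could be compared. It was lower in 5 of 5 classes, class II-high cells (-0.91) and the cells outside all gates (-0.73) included, where B2m was at 0.26 and 0.46. It was lower in 4 of 4 macrophage clusters (-0.74 to -0.63), in 7 of 7 bins of cells with a like number of interferon-stimulated genes (-1.36 to -0.78), and in host-class macrophages (-0.69). All these subsets are overlapping cuts of the same cells, from 1 library a group, so their counts are not repeats of the comparison. Over the same 7 bins Psmb8 and H2-K1 (-0.75 to -0.16) were each lower in 7 and Tapbp in 0, while B2m was lower in 3. In macrophages the interval of H2-K1 held 0 in both bins, and that of Psmb8 in the bin of 2 to 3 genes. After each cell had been thinned to 3000 UMIs, H2-D1 had -0.78 in macrophages, -1.23 in classical and -1.21 in Ly6C-low monocytes.

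Set against B2m inside each class, H2-D1 made 0.927 UMIs per B2m UMI in macrophages at day 7 and 1.52 (1.48 to 1.55) at steady state. The ratio was 0.793 and 1.61 in classical monocytes, 0.606 and 1.39 in Ly6C-low monocytes, and 1.09 and 2.45 in class II-high cells. None of the intervals overlapped between the libraries. H2-K1 per B2m was 0.484 and 0.488 in macrophages, with overlapping intervals, but 0.373 and 0.508 in classical monocytes, 0.346 and 0.580 in Ly6C-low monocytes and 0.454 and 0.601 in class II-high cells. H2-D1 made 65.7% (63.5 to 67.8) of the UMIs of both heavy chains in macrophages at day 7 and 75.7% (75.1 to 76.2) at steady state. In classical monocytes its share was 68.0% and 76.0%, and in Ly6C-low monocytes 63.7% and 70.6%. A ratio of 2 genes is compared between libraries only, since 3′ counts are not scaled to length.

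**Figure D4:**
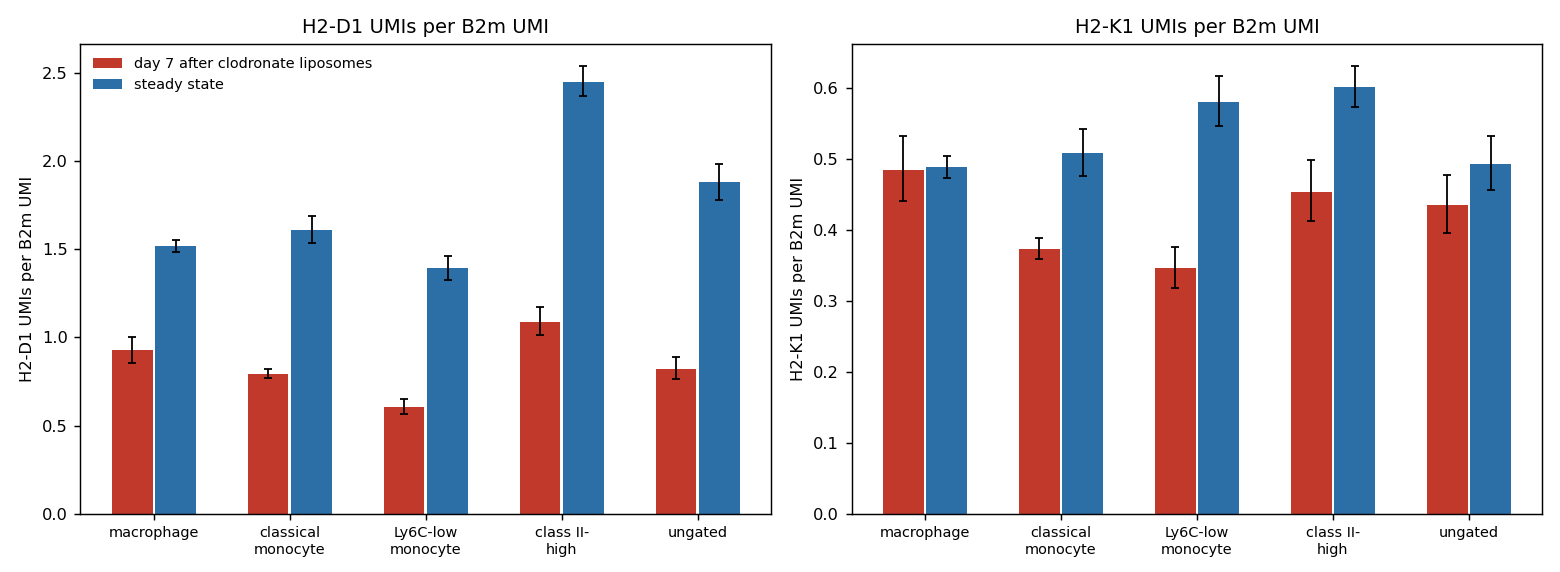
UMIs of H2-D1 (left) and H2-K1 (right) per UMI of B2m (bars from 0) by gated class, at day 7 (red, left bar) and steady state (blue, right bar), with intervals converted from 95% Clopper-Pearson limits. H2-D1 per B2m is lower at day 7 in all 5 sets of cells (0.927 against 1.52 in macrophages), and H2-K1 per B2m is level in macrophages (0.484 against 0.488).

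Over all cells, where the makeup of the libraries differs, 2 of 10 genes were higher by 1.5-fold or more (15% of 6439 genes) and 1 lower (20.2%), so 3 were past it in either direction (35.2%), and 5 of 10 were lower at any size (52.6%). Tap1 had 67.3 CPM at day 7 and 42.8 at steady state (log2 0.65) and Psmb9 had 118 and 75.7 (0.64), while H2-D1 had 1233 and 2491 (-1.02). With the classes given equal shares in both libraries, Tap1 was at 0.15, Psmb9 at -0.09 and H2-D1 at -0.97. Macrophages, low in both Tap1 and Psmb9, made 12.6% of cells at day 7 and 53.5% at steady state.

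Other heavy chain genes were lower at day 7 wherever they could be compared: 5 of 5 in macrophages, 6 of 6 in classical and 7 of 7 in Ly6C-low monocytes, against 40.1%, 38.8% and 44.4% of all genes. The median log2 ratios of these genes were -0.42, -0.92 and -0.84. By 1.5-fold or more, 1, 5 and 4 of them were lower, against 6%, 6.33% and 12.6% of all genes. In macrophages the intervals of H2-T23 (-0.22) and H2-M3 (-0.43) held 0. The list includes Fcgrt and Hfe beside the H2 genes. The lowest ratio in Ly6C-low monocytes was that of H2-Q6, a near-identical neighbour of H2-Q7, with 14.1 CPM at day 7 and 40.1 at steady state (-1.51), from 9 and 35 UMIs. H2-T23, whose product Qa-1 is read by natural killer cells, had 142 and 305 there (-1.10). In macrophages the lowest was H2-T22, with 20 UMIs at day 7 and 444 at steady state (log2 ratio of CPM -1.33). H2-M3, which presents formylated peptides, had 25.8 and 59.4 in classical monocytes (-1.20). Fcgrt, which encodes the neonatal Fc receptor and is related to class I in structure, had 31.7 and 70.5 there (-1.15).

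Genes of peptide loading and trimming were higher in 8 of 9 in classical and 8 of 10 in Ly6C-low monocytes, against 61.2% and 55.6% of all genes, with medians of 0.52 and 0.24. In macrophages 6 of 8 were higher, against 59.9% of all genes, and the median of 0.11 was close to that of all genes (0.12). In classical monocytes Sec61a1, part of the channel into the endoplasmic reticulum, had 105 CPM at day 7 and 45.6 at steady state (1.20). The chaperones Calr (1.01) and Canx (0.63) were higher there as well. Tapbpl, a tapasin relative that edits peptides, was lower in Ly6C-low monocytes, with 20.3 CPM at day 7 and 45.9 at steady state (-1.18). Of the 3 constitutive catalytic subunits, 3 were higher in Ly6C-low monocytes (median 0.59), 2 in classical monocytes (0.36), which is near the share of all genes, and 0 in macrophages (-0.20).

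Interferon-stimulated genes were lower in 5 of 6 compared in macrophages, 14 of 15 in classical and 11 of 11 in Ly6C-low monocytes. Of all genes compared, 40.1%, 38.8% and 44.4% were lower in these classes. The medians of the interferon-stimulated genes were -0.86, -0.62 and -0.88. The lowest in classical monocytes were Ifit3, an interferon-induced antiviral gene, with 35 UMIs at day 7 and 73 at steady state (log2 ratio of CPM -2.93), and the chemokine gene Cxcl10, with 36.6 and 274 CPM (-2.90). Of the 12 or 13 class I regulators compared, 1, 7 and 7 were lower in the 3 classes, against the same shares of all genes (medians 0.29, -0.03 and -0.02). Irf7, which carries the interferon response forward, was the lowest of these in classical monocytes, with 69.4 CPM at day 7 and 160 at steady state (-1.20). MHC class II genes were lower in 6 of 6 in each class, against the same shares of all genes. These lists were not tested, and their part in the lower H2-D1 was not tested.

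The genes were then followed along the interferon state of single cells, counting how many of 17 interferon-stimulated genes a cell showed after thinning to 3000 UMIs. Cells with 4 or more numbered 109 of 489 classical monocytes at day 7 (22.3%, 18.7 to 26.2) and 41 of 141 at steady state (29.1%, 21.7 to 37.3). They were 6 of 87 and 13 of 90 Ly6C-low monocytes. In macrophages they were 0 of 117, which allows a share of up to 2.56%, and 26 of 788 (3.30%).

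Classical monocytes with 4 or more such genes had more of B2m than those with 0 or 1: 2171 against 1349 CPM at day 7 (1.61-fold) and 2285 against 1427 at steady state (1.60-fold). H2-K1 was 1.49-fold and 1.36-fold higher, and Psmb8 1.53-fold and 1.97-fold. Of these 4 genes H2-D1 differed least, at 1560 against 1160 CPM (1.34-fold) at day 7 and 3309 against 2979 (1.11-fold, with an interval that held 1) at steady state. Steady-state macrophages with 4 or more had 1846 CPM of H2-D1 against 2017 in those with 0 or 1, with an interval that held equality. The intervals of H2-K1 (628 against 630), B2m (1474 against 1252), Tap2, Tapbp and Psmb10 held equality there as well. Psmb8 had 295 against 142 and Psmb9 128 against 38.8, with intervals that left it out. Those of Tap1 (89.7 against 23.4) and H2-Q7 (38.5 against 6.78) left it out too, from 7 and 3 UMIs in the cells with 4 or more. Within the classical monocytes with 4 or more, H2-D1 had 1560 CPM at day 7 and 3309 at steady state (log2 -1.09), and B2m 2171 and 2285 (-0.07).

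From cell to cell the 10 genes varied together weakly. Over cells thinned to 3000 UMIs, the median Pearson r of their 45 pairs was 0.02 in 117 day 7 macrophages and 0.05 in 788 steady-state ones. It was 0.02 (489 cells) and 0.08 (141 cells) in classical and 0.05 (87) and 0.07 (90) in Ly6C-low monocytes, where pairs of all detected genes had a median within 0.01 of 0. Those genes were found in at least 10% of cells. Among the members found as widely, the median was 0.05 in day 7 macrophages and 0.02 to 0.08 over all sets. Of all detected pairs, 10.6% to 31.1% had an r at or above it. Cells of 1 library share its preparation, and genes at under 1 UMI a cell, which all but B2m, H2-D1 and H2-K1 were in most sets, cannot show a strong correlation at this depth.

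Among the pairs that were well counted, B2m and H2-K1 had r from 0.11 to 0.29 and H2-D1 and H2-K1 from 0.06 to 0.43, positive in 6 of 6 sets. The pair of B2m and H2-D1 ran from 0.01 to 0.26. Genes detected in at least as many cells as the least detected of these 3 had pair medians of 0.01 to 0.14 over the 6 sets. In day 7 classical monocytes all 3 pairs (0.26 to 0.28) were above the 95th percentile of such genes in that set (0.16). In day 7 macrophages B2m with H2-K1 (0.29) and H2-D1 with H2-K1 (0.27) were above theirs (0.23), and B2m with H2-D1 (0.04) was below it. In the other 4 sets the 3 pairs were below it. Tap1 and Psmb9, which share the stretch printed above, had r from -0.13 to 0.22, positive in 3 of 6 sets, at fewer than 1 UMI of each a cell.

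**Figure D5:**
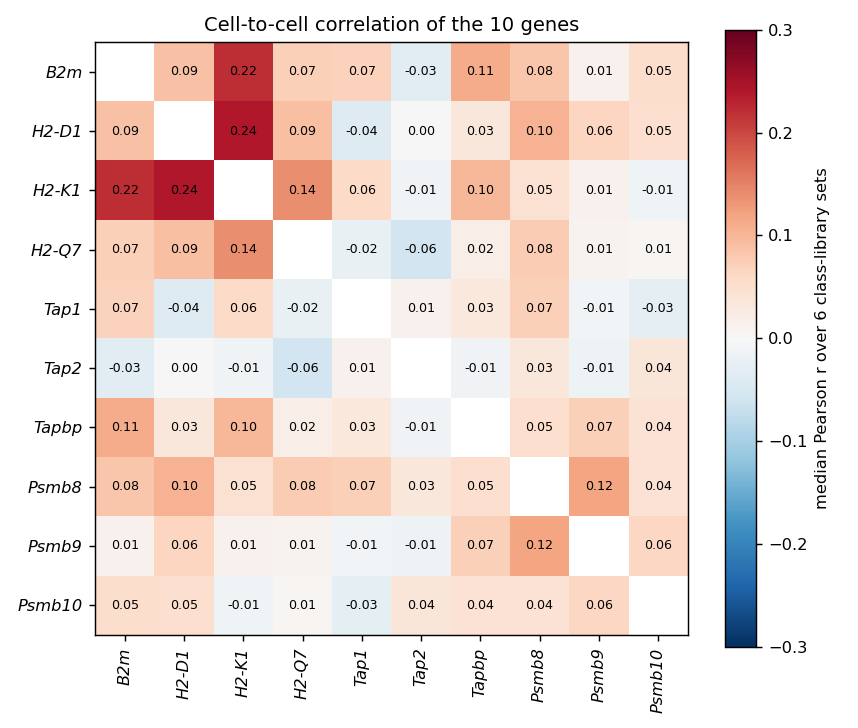
Median Pearson r between each pair of the 10 genes over the 6 sets of cells (macrophages, classical and Ly6C-low monocytes at day 7 and at steady state), from counts thinned to 3000 UMIs a cell; red is positive, blue negative. The highest medians are those of H2-D1 with H2-K1 (0.24) and B2m with H2-K1 (0.22), and those of Tap2 lie between -0.06 and 0.04.

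The genes most like the sum of the 10 were named by their mean r with it over the 6 sets. This is a sum of UMIs, so B2m, H2-D1 and H2-K1, which have the most UMIs, weigh most in it. H2-K1 had r from 0.21 to 0.53 with the sum of the other members, and Tap2 from -0.15 to 0.08. The 2278 genes ranked were detected in at least 10% of the cells of each set. Ribosomal, mitochondrial, Gm and Rik genes and the 10 themselves had been left out. The first were Ctss (0.25), which encodes the lysosomal protease cathepsin S, Cst3 (0.23), which encodes the protease inhibitor cystatin C, and Srgn (0.21), which encodes the granule proteoglycan serglycin. Ly6e (0.20), Tyrobp (0.18), Fcer1g (0.18), Laptm4a (0.18), Apoe (0.18), Csf1r (0.18) and Acot9 (0.17) followed, where the 95th percentile of all genes ranked was 0.07. Srgn was below 0 in day 7 Ly6C-low monocytes (-0.08) and Csf1r in steady-state macrophages (-0.02). H2-T23, at rank 20, was the other heavy chain gene that could be ranked.

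Host and donor cells could be compared in steady-state macrophages, with 703 host-class and 102 donor-class cells by their CD45.2 and CD45.1 antibody counts. H2-D1 had 1938 CPM in host-class and 2494 in donor-class macrophages (log2 -0.36, -0.43 to -0.30), and B2m 1267 and 1402 (-0.15, -0.23 to -0.06). H2-K1 was level, at 627 and 640 (-0.03, -0.15 to 0.10), as in the comparison of the libraries. Psmb9 had 42.3 and 64.6 (-0.61) and Tapbp 146 and 117 (0.32). At day 7 the donor class held 8 macrophages, too few to compare. Of 564 classical monocytes at day 7, 427 were donor-class, 19 host-class and 118 unassigned, and of 104 Ly6C-low monocytes 93 were donor-class, 1 host-class and 10 unassigned. In donor-class cells alone the log2 ratio of H2-D1 between the libraries was -1.22 in classical and -1.15 in Ly6C-low monocytes.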

How the data were processed

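The values are counts of UMIs per gene and per antibody in each cell, deposited by the authors as made with Cell Ranger 6.1.2 (Seurat 4.4.0 and mm10 are also named), per the submitters' processing notes. How reads shared by near-identical heavy chain genes were counted is not given in the sources used here. Cells under 500 UMIs or 200 genes or above 10% mitochondrial UMIs were dropped, as were Scrublet doublets (10 at day 7, 7 at steady state). Gates used summed marker UMIs per 10000, with thresholds set with the sums in view; 72 cells lay within 2-fold below the macrophage threshold, 554 below the classical and 141 below the Ly6C-low monocyte threshold. Counts were summed per class and library with Poisson or Clopper-Pearson intervals (95%), using Python 3.11.15, numpy 2.4.6, scipy 1.17.1, pandas 2.3.3 and scanpy 1.11.5. The code was tested on simulated data. Genes and lists were chosen with earlier results of these data known. Beyond the 10 genes, the text names some of the 3 genes with the largest ratio in each list and class, and the 10 genes most correlated with the sum. Promoter windows are from RefSeq (GRCm38.p6).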

Additional observations from a re-analysis of the deposited data

How the results depend on the processing

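Of the summary values recomputed under other settings, 98 moved by less than their error, 16 moved further and 0 reversed. Among the other values recomputed, 379 moved by less than their error, 81 moved further and 1 reversed. Some ratios changed sign. Among those near 0, B2m in macrophages was at -0.03, and at 0.07 after thinning. Farther from 0, Psmb9 in macrophages was at -0.49, but at 0.13 after thinning. It was at 0.21 there without the cells showing 4 or more interferon-stimulated genes. Psmb10 over all cells was at 0.37, but at -0.12 in host-class cells alone. H2-D1 stayed below 0 and Tapbp above 0 in each comparison under each setting run. The median of the genes in macrophages was -0.16 relative to the median of all genes and -0.57 in donor-class cells alone (8 cells at day 7), against -0.05. Over all cells the median was -0.10 in host-class and -0.22 in donor-class cells, 0.084 at a minimum of 50 CPM and -0.12 with equal class shares, against 0.01, and Psmb9 reversed to -0.090 with equal class shares, against 0.64. Without thinning, the median correlation in day 7 classical monocytes was 0.12. With gate thresholds set higher, the summed level was 3786 CPM in macrophages, 4359 in classical and 8730 in Ly6C-low monocytes at day 7 and 12631 in Ly6C-low monocytes at steady state, and the immunoproteasome share of day 7 classical monocytes was 53.1%. With clusters in place of gates, the summed level was 4598 CPM in classical and 8124 in Ly6C-low monocytes at day 7 and 4403 in macrophages at steady state, and the immunoproteasome share of steady-state classical monocytes was 61.6%. The cause was not tested. Host-class cells alone could not be fitted in monocytes, which held too few. No paired analysis was possible because each group has 1 library.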
